A study of Mus musculus with 127 samples.

Results

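The 6 genes Prkaa1, Prkaa2, Prkab1, Prkab2, Prkag1 and Prkag2, which encode catalytic and regulatory subunits of AMP-activated protein kinase (AMPK), and Stk11, which encodes its upstream kinase LKB1, were followed across single neurons and astrocytes from mouse cultures. These 7 genes were taken by name from a table of read counts for 53465 genes. The set was selected on the CPM of Prkaa1 (counts scaled to a library of fixed size), which had been seen to be higher in neurons with an expanded huntingtin fragment under vehicle. Values of that contrast are therefore descriptions without a test, for Prkaa1 and for the other members. All 7 genes were among the 15091 that passed the filter on low counts.

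The cells were 113 striatal neurons of newborn C57BL/6 mice and 14 cortical astrocytes. Each neuron was recorded electrically and its content was then drawn into the recording pipette (Patch-seq). The neurons grew on small islands of cortical astrocytes, and all cells were collected at 15 days in vitro. Neurons of 4 groups carried a lentivirus for human HTT exon 1 fused to GFP, a fragment of the protein that is expanded in Huntington's disease, with 97 glutamine repeats (97Q) or 25 (25Q). In 26 neurons with 97Q and 23 with 25Q the cultures received RGFP109, an inhibitor of histone deacetylases 1 and 3, at 100 nM, first at day 6 and again every 3 days. The other 26 neurons with 97Q and 29 with 25Q received the vehicle DMSO. The 14 astrocytes were untreated, and 9 striatal neurons carried an empty vector and received vehicle. The transgene acts beside the cells' own huntingtin genes, and its RNA is not a row of the table.

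AMPK is a heterotrimer of a catalytic alpha subunit, a beta subunit that holds the complex together and binds glycogen, and a gamma subunit that binds AMP, ADP and ATP. When AMP rises relative to ATP, LKB1 phosphorylates the alpha subunit, and the active kinase slows the synthesis of fatty acids, cholesterol and protein and favours autophagy and fuel uptake. In neurons, which depend on a steady supply of ATP for ion pumping and transmission, a calcium-dependent kinase, CaMKK2, can phosphorylate the same site.

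Each subunit type has paralogous genes, so the coding sequences were compared to see how far reads from one could be taken for the other. Prkaa1 and Prkaa2 were identical at 70.5% of aligned bases, with a longest shared run of 35 bases at the start of the coding sequence. For Prkab1 and Prkab2 identity was 72.8% and the longest run 23 bases, and for Prkag1 and Prkag2 identity was 69.3% and the longest run 15 bases. The alpha and beta stretches are shown on the coding strand of GRCm38 (GENCODE M21), with the longest run that both genes share in capitals. They are exon 1 of Prkaa1 (chr15:5143884-5143966, plus strand), exon 1 of Prkaa2 (chr4:105109734-105109798, minus strand), exon 3 of Prkab1 (chr5:116020384-116020454, minus strand) and exon 4 of Prkab2 (chr3:97663595-97663665, plus strand).
Prkaa1: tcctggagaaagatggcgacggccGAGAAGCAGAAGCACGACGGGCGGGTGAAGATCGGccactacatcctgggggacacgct
Prkaa2: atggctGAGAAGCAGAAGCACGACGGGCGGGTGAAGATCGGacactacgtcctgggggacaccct
Prkab1: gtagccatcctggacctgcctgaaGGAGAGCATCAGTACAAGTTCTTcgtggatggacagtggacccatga
Prkab2: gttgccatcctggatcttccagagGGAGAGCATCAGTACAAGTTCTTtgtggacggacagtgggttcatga
Outside the capitals these stretches differ at several bases, so a read longer than the shared run meets a base that tells the paralogs apart. The sources used here do not give the read length.

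The genes lie apart in the genome. Prkaa1 (ENSMUSG00000050697) spans chr15:5143861-5181899, Prkaa2 (ENSMUSG00000028518) chr4:105029874-105109890 and Prkab1 (ENSMUSG00000029513) chr5:116013586-116024508, and none of the 3 shares exon sequence with another annotated gene. Prkab2 (ENSMUSG00000038205) at chr3:97658193-97673812 shares 9 bases with Gm17651. Prkag1 (ENSMUSG00000067713) at chr15:98812797-98831521 shares 950 bases with its antisense gene B130046B21Rik, and Prkag2 (ENSMUSG00000028944) at chr5:24862744-25100642 shares 937 bases with Prkag2os1 and Prkag2os2. Stk11 (ENSMUSG00000003068) at chr10:80115803-80130682 shares 232 bases with Cbarp on the opposite strand. Whether reads were counted by strand, and how reads in shared bases were assigned, is not stated. The values of both gamma genes and of Stk11 may therefore hold reads of these partners or lack reads of their own. The promoter window of Prkaa1, from 250 bases before to 50 after its start in RefSeq on GRCm38.p6, had a GC content of 82.0% and 52 CpG dinucleotides, more than 99.4% of 32851 promoter windows. Stk11 had 33 CpG dinucleotides, Prkaa2 35, Prkab1 30, Prkab2 23 and Prkag1 16 in the same window, against a median of 7 over all promoters. Prkag2 has 3 annotated starts, whose windows had 45, 25 and 6.

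Total counts per cell ran from 999700 to 9263305 (median 4440040), without molecular identifiers, so exact intervals of shares cover counting error only and not the spread between batches. The labels name a batch for each cell but no animal or culture. Counts of all cells that share group and batch were summed, which gave 3 sums per transgene group (n = 3 batches), and p-values measure the spread between these sums alone. A batch 2 sum holds only 3 or 4 cells. Empty vector neurons and astrocytes were present in batch 3 alone, with 1 sum each and no test. The 8 pan-neuronal markers summed to 3460 to 8060 CPM in the transgene neurons, 484 CPM in astrocytes and 7300 CPM in empty vector neurons, and the 12 astrocyte markers to 310 to 1330, 15300 and 451 CPM in the same order. The 4 GABAergic markers had 710 to 2020 CPM in 97Q neurons under RGFP109 and 889 to 1780 under vehicle, against 3320 to 4900 CPM in 25Q neurons under RGFP109 and 2290 to 5130 under vehicle, so repeat length moved with these markers under both treatments.

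Neurons held RNA for every subunit type. Per kb of exon, Prkag1 had the highest mean level over the 12 sums of transgene neurons at 28.3 CPM per kb, then Prkaa1 at 19.2 and Prkag2 at 11.3. Prkab2 at 5.00, Prkab1 at 4.93, Prkaa2 at 4.65 and Stk11 at 3.86 CPM per kb formed a lower tier. A count was found in 111 of 113 neurons for Prkag2, in 112 for Stk11, in 106 for Prkag1 and in 103 for Prkaa1. The beta genes and Prkaa2 were patchier, with a count in 81 neurons for Prkab2, 79 for Prkaa2 and 65 for Prkab1. A count means 1 read or more, so it does not show a clear level. The median neuron had only 2.12 CPM of Prkab2, 1.95 CPM of Prkaa2 and 0.236 CPM of Prkab1.

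At least 1 alpha, 1 beta and 1 gamma gene had a count together in 96 of 113 neurons, 85.0% (exact 95% interval 77% to 91.0%). After every cell was thinned to 900000 counts this was 81 neurons, or 71.7%. In both cases 1 read of a gene was enough. By group, the unthinned share was 80.8% in 97Q neurons under RGFP109, 84.6% in 97Q neurons under vehicle, 87.0% in 25Q neurons under RGFP109 and 86.2% in 25Q neurons under vehicle. Thinned, the shares were 73.1%, 65.4%, 69.6% and 75.9% in the same order, so the ranking of the groups changed with depth. These shares pool the cells of 3 batches and were not tested between groups. The beta pair was the one most often missing. Both alpha genes had a count in 73 neurons, Prkaa1 alone in 30, Prkaa2 alone in 6 and neither in 4. For the beta genes, 46 neurons had both, 19 had Prkab1 alone, 35 had Prkab2 alone and 13 had neither, whereas 105 neurons had both gamma genes.

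Prkaa1 encodes the catalytic subunit alpha 1, which is found in most cell types. It stood at 99.2, 193 and 149 CPM in 97Q neurons under vehicle in batches 1, 2 and 3, against 53.6, 48.5 and 54.3 CPM in 25Q neurons under vehicle. All 3 sums with 97Q lay above all 3 with 25Q, in the contrast on which the gene was noticed, where 3.78% of the genes tested were higher without overlap. The means were 147 ± 46.7 CPM and 52.1 ± 3.19 CPM (SD, n = 3 each), with a log2 fold change (log2FC) of 1.43 (SE 0.354). By batch the difference in log2(CPM + 1) was 0.88, 1.97 and 1.44. Prkaa1 was the only member whose sums did not overlap here, where 8.47% of genes had none in either direction, and nothing is read from that, since the choice used it.

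The spread over cells was wide. The median neuron had 79.6 CPM of Prkaa1 in the 97Q vehicle group and 27.3 CPM in the 25Q vehicle group, and the highest cell 555 and 152 CPM. In batch 2, 1 cell gave 82.3% of the Prkaa1 counts of 97Q vehicle neurons and 1 cell gave 83.1% of those of 25Q vehicle neurons. In the larger batch 3 the top cell gave 22.8% and 23.9%. Without batch 2 the log2FC was 1.23, and with every cell given equal weight it was 1.54. These values, too, describe the choosing contrast.

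**Figure D1:**
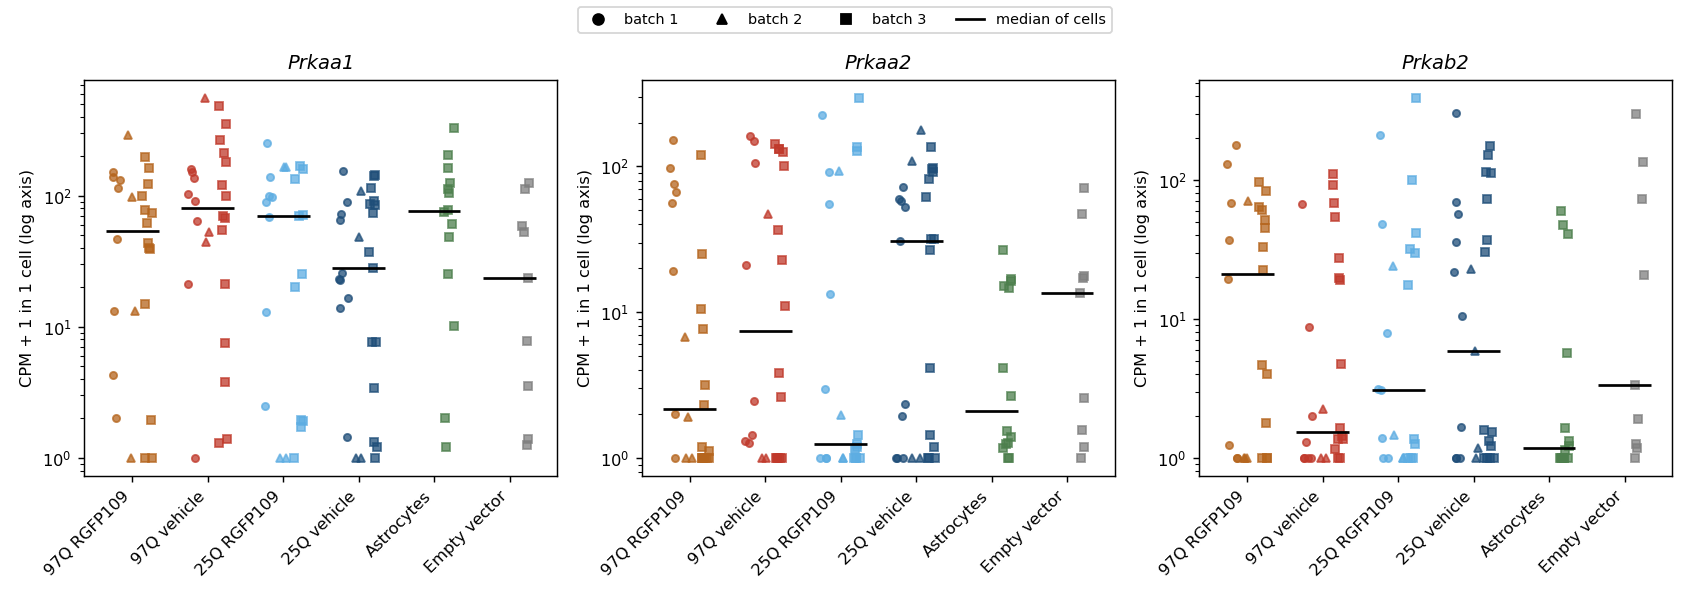
CPM + 1 of Prkaa1, Prkaa2 and Prkab2 in each of the 127 cells on a log axis, by group, with symbols for batches and a line at the median of the cells. Prkaa1 has a median of 79.6 CPM in 97Q vehicle and 27.3 CPM in 25Q vehicle neurons, and Prkaa2 and Prkab2 have many cells at or near 0.

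Under RGFP109 the repeat lengths did not separate. Prkaa1 had 83.9, 81.5 and 67.7 CPM in 97Q neurons with RGFP109 and 93.8, 89.6 and 57.2 CPM in 25Q neurons with RGFP109. The sums overlapped, and these 6 sums share none with the contrast on which the gene was noticed. The log2FC was 0.03 (SE 0.347, 95% interval -0.75 to 0.81; edgeR quasi-likelihood test, Benjamini-Hochberg adjusted p = 0.999). By batch the difference was -0.16, -0.13 and 0.24. Without 12 neurons rich in astrocyte markers (over 1489 CPM) the log2FC was 0.43.

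The same sums set side by side show Prkaa1 lower with the drug in 97Q neurons and higher with it in 25Q neurons. In 97Q neurons the mean was 77.7 ± 8.75 CPM with RGFP109, against 147 ± 46.7 CPM under vehicle (SD, n = 3 each; log2FC -0.79, SE 0.350). In 25Q neurons it was 80.2 ± 20.0 CPM with RGFP109, against 52.1 ± 3.19 CPM under vehicle (SD, n = 3 each; log2FC 0.60, SE 0.349). The sums did not overlap in either case, where 3.39% of the genes tested were lower without overlap in 97Q neurons and 2.89% higher in 25Q neurons. By batch the difference in log2(CPM + 1) was -0.24, -1.23 and -1.13 in 97Q neurons. In 25Q neurons it was 0.79, 0.87 and 0.07, so batch 3 hardly differed there. The drug effect in 97Q minus that in 25Q was -1.39 (SE 0.492), and -1.03, -2.10 and -1.20 by batch. Both vehicle groups are those of the choosing contrast, so these values too are given without a test.

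In order of level, Prkaa1 was highest in 97Q vehicle neurons (99.2 to 193 CPM), then at 89.8 CPM in astrocytes, 57.2 to 93.8 CPM in 25Q neurons with RGFP109, 67.7 to 83.9 CPM in 97Q neurons with RGFP109, 48.5 to 54.3 CPM in 25Q vehicle neurons and 44.4 CPM in empty vector neurons. The 2 RGFP109 groups overlapped and the astrocyte sum lay inside the range of the 25Q RGFP109 sums. In batch 3 the 97Q vehicle sum was 3.31 times and the 25Q vehicle sum 1.22 times the empty vector sum, on CPM + 1 with 1 sum a group. Both vehicle sums are part of the choosing contrast.

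**Figure D2:**
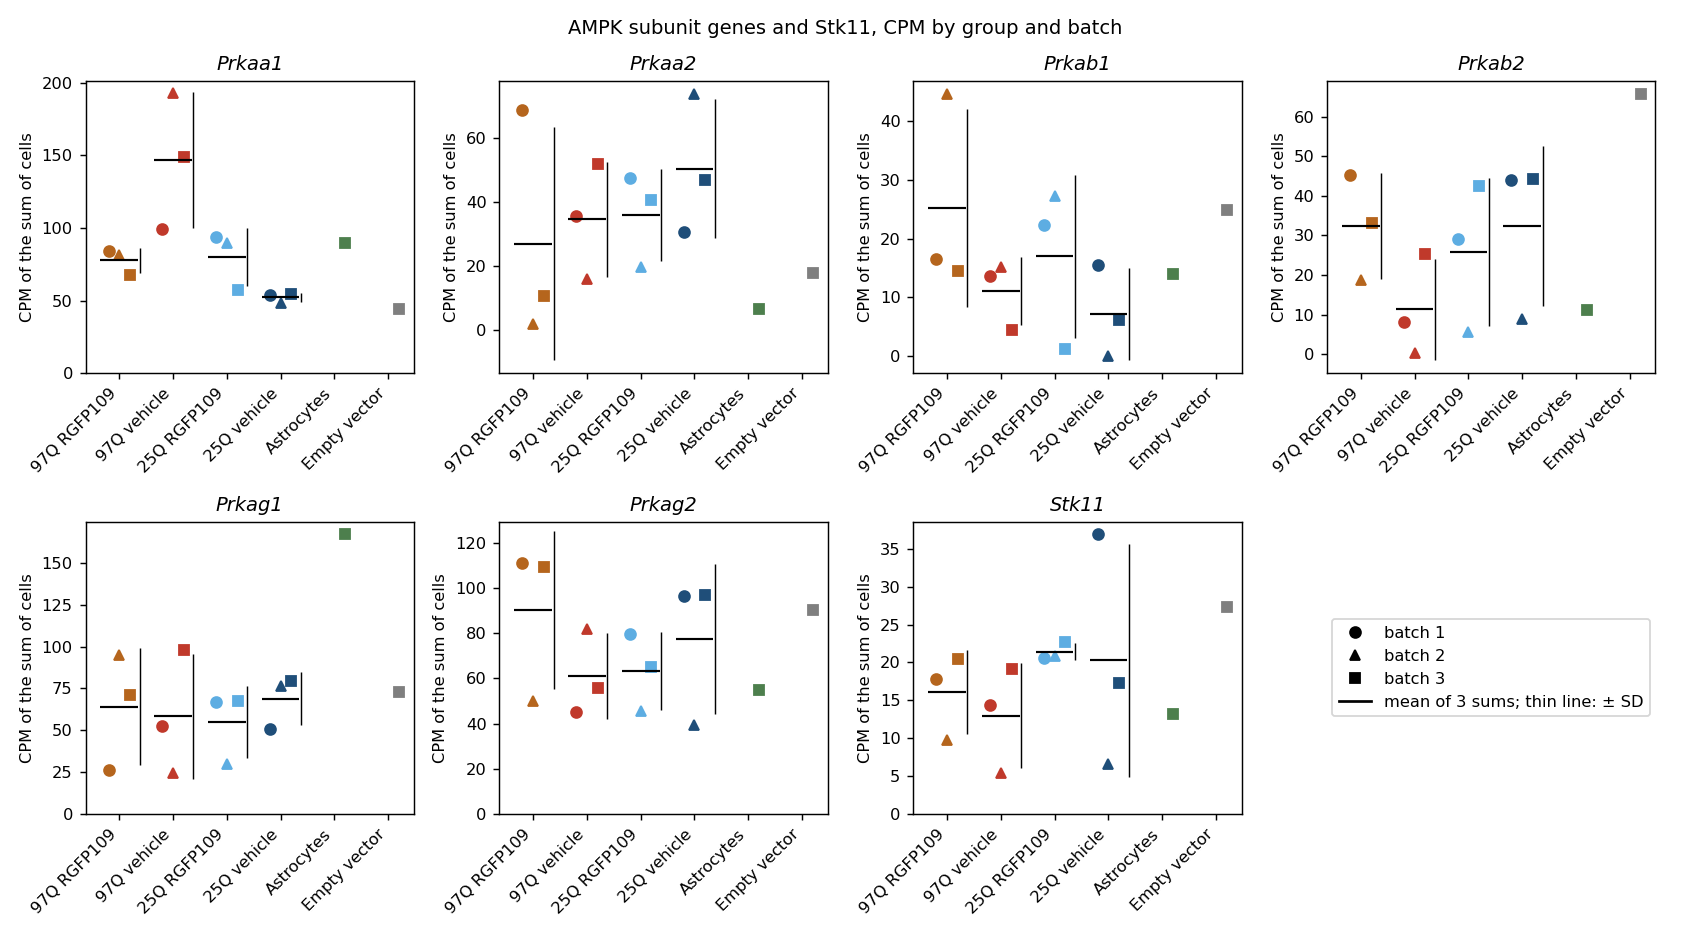
CPM of each member in each sum of cells, by group and batch (symbols), with the mean of 3 sums as a line and ± SD beside it; astrocytes and empty vector neurons have 1 sum. Prkaa1 has its 3 highest sums, 99.2, 149 and 193 CPM, in 97Q vehicle neurons, whereas the groups overlap for most other members.

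Markers of other cells were compared with the vehicle groups. The 12 astrocyte markers, all detected in both groups, summed to 419 to 729 CPM in 97Q vehicle neurons and 310 to 1330 CPM in 25Q vehicle neurons. Prkaa1 itself had a median of 104 CPM in the 12 neurons rich in astrocyte markers and 47.4 CPM in the other 101 neurons. Without the 12 neurons the 97Q vehicle difference was 1.5. The 6 endothelial and mural markers summed to 146 to 1630 CPM in 97Q vehicle neurons, with Rgs5 at 0, against 44.1 to 151 CPM in 25Q vehicle neurons, with none at 0. Without the 3 neurons over 1000 CPM of this list, a choice made after the data were seen, the difference was 1.41. The 4 GABAergic markers were lower in the 97Q groups, as given above, and their part in the Prkaa1 values was not tested.

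Prkaa2 encodes alpha 2, the catalytic subunit that prevails in muscle and is also found in neurons. It had 35.7, 16.2 and 51.99 CPM in 97Q vehicle neurons in batches 1, 2 and 3, against 30.8, 73.7 and 46.9 CPM in 25Q vehicle neurons. The groups overlapped, and the log2FC of -1.0 (SE 1.04) came from batch 2: without that batch it was 0.20. With RGFP109 it had 68.7, 1.86 and 10.7 CPM in 97Q neurons and 47.4, 19.8 and 40.8 CPM in 25Q neurons. The sums again overlapped (log2FC -0.91, SE 1.05; edgeR, Benjamini-Hochberg adjusted p = 0.999), and leaving out 1 batch gave -2.46 (batch 1), -0.37 (batch 2) or -0.46 (batch 3). A single neuron gave 37%, 100% and 26.1% of the Prkaa2 counts in the 3 sums of 97Q vehicle neurons.

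The share of alpha 1 in the alpha RNA, per kb of exon, was 82.6%, 95.3% and 83.1% in 97Q vehicle neurons, against 74.9%, 53% and 66.4% in 25Q vehicle neurons. The groups did not overlap, which follows in part from the choice of Prkaa1. Under RGFP109 the share averaged 86.0% ± 16.2 in 97Q neurons and 78.8% ± 9.11 in 25Q neurons (SD, n = 3 each), and the ranges of 67.7% to 98.7% and 70.6% to 88.6% overlapped. Astrocytes stood at 95.8% and empty vector neurons at 80.8%. Alpha 1 RNA was thus above alpha 2 RNA per kb in all 14 sums.

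**Figure D3:**
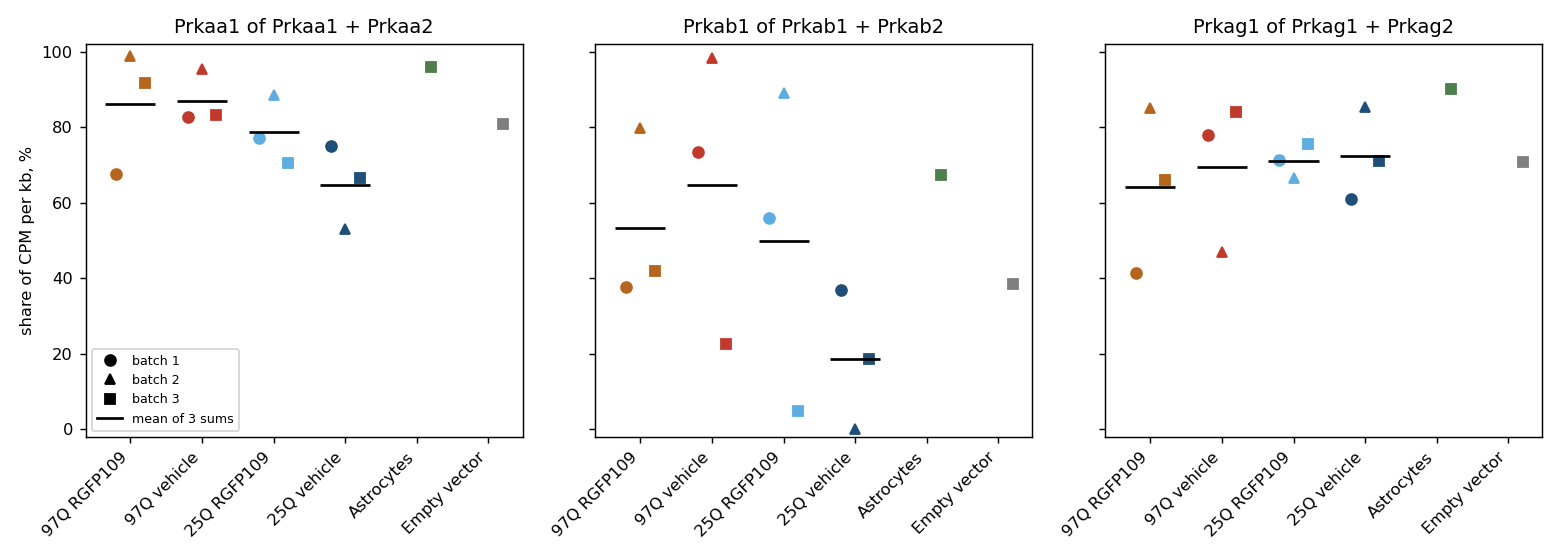
Share of the first paralog in the summed CPM per kb of each subunit pair, in percent, by group and batch, with the mean of 3 sums as a line. The alpha 1 share lies between 53% and 98.7% in the transgene neurons, and the beta 1 share runs from 0% to 98.2%.

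The beta genes encode the scaffold subunits, whose C-terminal part joins alpha and gamma. Prkab2 had 8.20, 0.462 and 25.4 CPM in 97Q vehicle neurons in batches 1, 2 and 3, against 43.99, 8.96 and 44.2 CPM in 25Q vehicle neurons. The 97Q sum was the lower within each batch, although the groups overlapped because the batch 2 sum of 25Q lay below the batch 3 sum of 97Q. The log2FC was -2.07 (SE 0.954), and by batch -2.29, -2.77 and -0.78, where 13.2% of all genes were lower in every batch. The batch 2 sum of 97Q rested on 4 counts in 1 of 3 cells, and in batch 1 a single neuron gave 84.7% of the counts. This is a value of the choosing contrast and has no test.

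With RGFP109, Prkab2 had 45.3, 18.7 and 33.3 CPM in 97Q neurons, and 29.1, 5.66 and 42.6 CPM in 25Q neurons. Against vehicle, the drug sum was the higher in each batch of 97Q neurons (2.33, 3.75 and 0.38 on the log2 scale of CPM + 1) and slightly lower in each batch of 25Q neurons (-0.58, -0.58 and -0.05). Of all genes, 9.64% were higher in every batch in 97Q neurons and 13.8% lower in every batch in 25Q neurons. The fitted difference was 2.62 in 97Q neurons (SE 1.01, 95% interval 0.34 to 4.90; edgeR p = 0.0284, Benjamini-Hochberg adjusted p = 0.999) and -0.45 in 25Q neurons (SE 0.890; edgeR, Benjamini-Hochberg adjusted p = 1.0). The difference between the drug effects was 3.07 (SE 1.37; edgeR, Benjamini-Hochberg adjusted p = 0.998). None of these passed, and 2.48% of all genes had an unadjusted p under 0.05 for the drug in 97Q neurons. In batch 2, 1 cell gave 100% of the Prkab2 counts of 97Q neurons with RGFP109, and the 97Q vehicle sum held 4 counts. Without batch 2 the drug difference in 97Q neurons was 1.32. Prkab2 had a median of 20.3 CPM in the 12 neurons rich in astrocyte markers, 0.903 CPM in the other neurons and 0.173 CPM in astrocytes. Without those 12 neurons the drug difference in 97Q neurons was 1.07, the lowest of a range of 1.07 to 4.02 over 12 alternatives. Their part in the Prkab2 values beyond this was not tested.

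Between repeat lengths under RGFP109, the Prkab2 sums overlapped (log2FC 1.00, SE 0.924; edgeR, Benjamini-Hochberg adjusted p = 0.999). Without the 12 neurons the value turned to -0.97. Prkab1 had 13.7, 15.1 and 4.44 CPM in 97Q vehicle neurons, against 15.6, 0 and 6.13 CPM in 25Q vehicle neurons. The count of 0 in 4 cells of batch 2 has an exact 95% Poisson interval up to 0.199 CPM. That covers counting error only and not the spread between cells. With RGFP109 Prkab1 had 16.5, 44.5 and 14.5 CPM in 97Q neurons, and 22.3, 27.3 and 1.30 CPM in 25Q neurons. The groups overlapped in both cases, and under RGFP109 the log2FC was 1.11 (SE 1.65; edgeR, Benjamini-Hochberg adjusted p = 0.999). At this depth in cells, a change in Prkab1 of several-fold could not have been detected, since the 95% interval ran from -2.60 to 4.82.

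The share of beta 1 in the beta RNA per kb spread widely: it was 64.7% ± 38.6 in 97Q vehicle neurons and 18.6% ± 18.5 in 25Q vehicle neurons (SD, n = 3 each). The ranges, 22.5% to 98.2% and 0% to 37%, overlapped. In 97Q vehicle neurons 1 cell gave 100% of the Prkab1 counts in batch 2 and 90.2% in batch 3. Prkab1 had a median of 20.1 CPM in the 12 neurons rich in astrocyte markers and 0.204 CPM in the other neurons. The astrocyte median was 1.85 CPM. The part of those 12 neurons in the shares was not tested. A count for Prkab1 was found in 38.5% of 97Q vehicle neurons and 51.7% of 25Q vehicle neurons, and for Prkab2 in 69.2% and 72.4%. The beta genes were thus the most variable from cell to cell: in the median sum 1 cell gave 52.3% of the Prkab1 counts and 58.2% of the Prkab2 counts, against 27.9% for Prkag1.

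The gamma genes encode the subunits that sense adenine nucleotides. Prkag1 had 52.7, 24.4 and 98.3 CPM in 97Q vehicle neurons, against 50.7, 76.5 and 79.7 CPM in 25Q vehicle neurons, and the groups overlapped. With RGFP109 it had 26.3, 95.1 and 70.9 CPM in 97Q neurons, and 66.7, 30.1 and 67.6 CPM in 25Q neurons, with overlap too (log2FC 0.30, SE 0.695; edgeR, Benjamini-Hochberg adjusted p = 0.999). This value turned to -0.75 without batch 2, to -0.65 without the 12 neurons rich in astrocyte markers and to -0.19 with limma-voom, and was 1.11 without batch 1. Its direction differed between batches in both comparisons. Prkag2, the gamma subunit with a long N-terminal extension, had 44.9, 82.1 and 55.8 CPM in 97Q vehicle neurons, against 96.5, 39.2 and 96.7 CPM in 25Q vehicle neurons. With RGFP109 it had 111, 49.8 and 109 CPM in 97Q neurons, and 79.7, 45.4 and 65.1 CPM in 25Q neurons. The sum with 97Q was the higher in each batch under RGFP109, as for 13.3% of all genes, but the groups overlapped (log2FC 0.52, SE 0.442; edgeR, Benjamini-Hochberg adjusted p = 0.999). The gamma 1 share of gamma RNA averaged 64.1% to 72.4% in the 4 transgene groups, the most even of the shares by group mean. Single sums spread widely, from 41.3% in 97Q neurons with RGFP109 to 85.3% in 25Q vehicle neurons. In batch 2, 1 cell gave 100% of the Prkag1 counts of 97Q vehicle neurons.

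Stk11 encodes LKB1, the kinase that phosphorylates AMPK and its relatives. It had 14.4, 5.42 and 19.1 CPM in 97Q vehicle neurons, against 36.99, 6.59 and 17.3 CPM in 25Q vehicle neurons, and the groups overlapped. With RGFP109 it had 17.9, 9.82 and 20.5 CPM in 97Q neurons, against 20.7, 20.9 and 22.7 CPM in 25Q neurons. All 3 sums with 97Q lay below all 3 with 25Q, and 3.58% of the genes tested were lower without overlap in this comparison. The gap was narrow beside the error (log2FC -0.47, SE 0.789; edgeR p = 0.568, Benjamini-Hochberg adjusted p = 0.999). Stk11 RNA was low but present in nearly every cell.

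**Figure D4:**
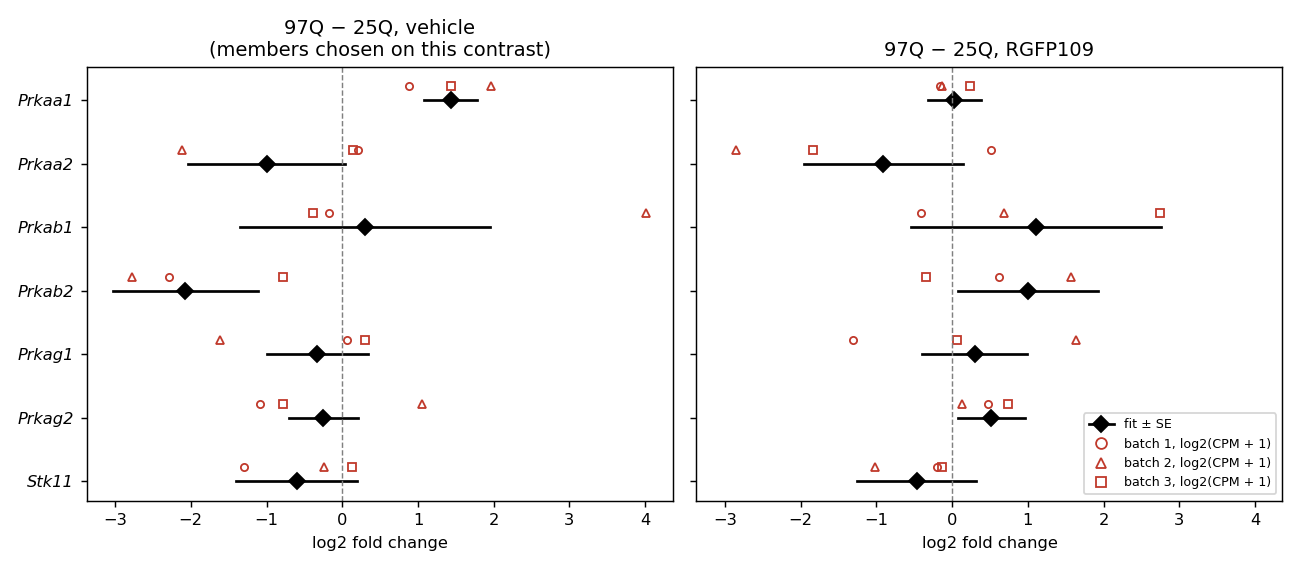
Log2FC of the 7 members for 97Q minus 25Q under vehicle (left, the contrast on which the genes were chosen, shown without a test) and under RGFP109 (right), with ± SE bars and open symbols for the differences of log2(CPM + 1) by batch. Prkaa1 is at 1.43 under vehicle and 0.03 under RGFP109.

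No member passed the test in any comparison in which it was tested. In edgeR, 0 of 15091 genes (0.0%) had a Benjamini-Hochberg adjusted p under 0.05 in any of the 5 contrasts. At an unadjusted p under 0.05 there were 564 genes (3.74%) for repeat length under RGFP109, 375 (2.48%) for RGFP109 in 97Q neurons, 381 (2.52%) for RGFP109 in 25Q neurons and 393 (2.60%) for the interaction. DESeq2 on the same sums called 277, 110, 143 and 70 genes in the same order, and no member tested there was among them. For repeat length under vehicle the unadjusted edgeR count was 597 genes (3.96%), and DESeq2 called 213. Over all members, Prkaa1 included, the RGFP109 difference in 97Q neurons was higher in 5 of 7 with a median log2FC of 0.51, where the median of all genes was -0.04. In 25Q neurons it was higher in 3 of 7 with a median of -0.23, where the median of all genes was 0.00. The 2 drug comparisons share no sums with each other. Each uses a vehicle group of the contrast on which Prkaa1 was chosen. Whether the counts of 5 and 3 of 7 differ from those of other genes, or from each other, was not tested. No drug response of the set is read from them.

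Astrocytes and empty vector neurons had 1 sum each in batch 3, so their difference has no replicate check. The astrocyte sum was higher for Prkag1 and Prkaa1 and lower for the other members. Prkag1 stood at 167 CPM in astrocytes and 73.2 CPM in empty vector neurons (log2 ratio of CPM + 1 of 1.18), and Prkaa1 at 89.8 and 44.4 CPM (1.00). Prkab2 was lower, at 11.3 CPM in astrocytes and 65.6 CPM in empty vector neurons (-2.44), as was Prkaa2, at 6.69 and 18.1 CPM (-1.31). Stk11 had 13.1 CPM in astrocytes and 27.4 CPM in empty vector neurons (-1.0). Prkag2 at 54.8 and 90.3 CPM (-0.71) and Prkab1 at 14.0 and 24.8 CPM (-0.78) were within a factor of 2. So 2 members were over 2-fold higher, where 20.0% of genes were, and 3 were over 2-fold lower, where 33.3% were. Prkaa1 and Stk11 lie at that limit. The gamma 1 share was 90.1% in astrocytes and 70.7% in empty vector neurons, and the beta 1 share 67.3% and 38.6%.

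In the batch 3 sums of vehicle neurons, Prkaa2 was 2.78 times the empty vector level in 97Q neurons and 2.52 times in 25Q neurons, on CPM + 1. Prkab1 was lower in both, at 4.44 CPM in 97Q vehicle neurons, 6.13 CPM in 25Q vehicle neurons and 24.8 CPM in empty vector neurons. Of the 7 members, 4 were past 2-fold in 97Q vehicle neurons (Prkaa1 and Prkaa2 higher, Prkab1 and Prkab2 lower), where 15.7% of genes were higher and 20.3% lower. In 25Q vehicle neurons Prkaa2 was past 2-fold higher and Prkab1 lower, where 15.0% and 15.7% of genes were. These comparisons have no test, and both share the empty vector sum. Prkaa1 was chosen on its level in 97Q vehicle neurons, so its place among the 4 follows in part from that choice. Nothing is read from the count.

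Genes that act with AMPK were described in 7 further lists. The partners of LKB1 and the other kinases that phosphorylate AMPK had 5 of 7 higher in 97Q than in 25Q neurons under vehicle, with a median log2FC of 0.44, and 4 of 7 higher under RGFP109, with a median of 0.25. The medians of all genes were 0.06 and 0.00, and 52.4% and 50.1% of all genes were higher, in the same order. These shares apply to each list below as well. Map3k7, the kinase TAK1, was at 1.2 (SE 1.08) and Camkk2, the calcium-dependent AMPK kinase, at -0.18 (SE 1.66) under vehicle. Under RGFP109 Camkk1, its paralog, was at 2.12 (SE 1.64) and Strada, the pseudokinase that activates LKB1, at -0.67 (SE 0.939). The 12 AMPK-related kinases that LKB1 also phosphorylates had medians of -0.15 and -0.17, from Sik2 at -1.2 to Mark3 at 0.94 under vehicle and from Mark3 at -0.54 to Mark4 at 0.54 under RGFP109. The microtubule affinity kinase Mark3 had an SE of 0.475 under vehicle and 0.474 under RGFP109, with differences by batch of 0.38, 1.82 and 0.58 under vehicle and 0.38, -1.81 and -0.47 under RGFP109. No gene of either list passed.

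Among AMPK substrates in lipid and sugar metabolism, 8 of 13 were higher under vehicle and 5 of 13 under RGFP109, with medians of 0.10 and -0.33. The highest under vehicle was Srebf2, a transcription factor of cholesterol synthesis that AMPK inhibits, at 169 ± 27.2 CPM in 97Q neurons and 63.6 ± 8.02 CPM in 25Q neurons (SD, n = 3 each; log2FC 1.31, SE 0.526). The lowest was Pfkfb2, an enzyme that sets the level of the glycolytic activator fructose 2,6-bisphosphate, at -1.85 (SE 0.972). Under RGFP109 Srebf1, the related factor of fatty acid synthesis, was at 0.95 (SE 1.19) and Tbc1d4, a regulator of glucose transporter traffic, at -3.48 (SE 2.40). Substrates in growth, autophagy and transcription had 10 of 16 higher under vehicle and 9 of 16 under RGFP109, with medians of 0.25 and 0.17. Ppargc1a, a coactivator for mitochondrial genes, was at 1.93 (SE 1.63) and Eef2k, the kinase of elongation factor eEF2, at -1.57 (SE 1.58) under vehicle. Foxo1, a transcription factor, was at 1.74 (SE 1.43) and Becn1, a component of the autophagy initiation complex, at -0.57 (SE 0.401) under RGFP109. None of these genes passed in edgeR after Benjamini-Hochberg adjustment.

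The 8 genes of mTORC1 and its regulators, the growth kinase complex that AMPK restrains, had 3 higher under vehicle and 4 under RGFP109, with medians of -0.06 and -0.08. Rptor, the subunit AMPK phosphorylates, was at 0.82 (SE 1.26) under vehicle and 1.09 (SE 1.30) under RGFP109, and the inhibitor Deptor at -2.40 (SE 3.06) and -2.57 (SE 2.51). Of the folliculin complex, an AMPK-binding regulator, 1 of 3 genes was higher under vehicle (median -0.06) and 2 of 3 under RGFP109 (median 0.71). Its subunit Flcn was at -0.31 (SE 0.554) under vehicle and 0.99 (SE 0.554) under RGFP109, and Fnip2 at 0.12 (SE 1.27) and -0.22 (SE 1.23). The adenylate kinases and AMP deaminases, which set the AMP level, had 4 of 7 higher under vehicle (median 0.08) and 3 of 7 under RGFP109 (median -0.05). The mitochondrial Ak3 was at 1.49 (SE 1.10) under vehicle and 0.91 (SE 1.03) under RGFP109, and Ak5, which is found mainly in brain, at -1.42 (SE 1.39) under vehicle. No gene of these lists passed.

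The genes whose level most resembled that of Prkaa1 were Tcf25, with a Pearson r of 0.92, Abhd3 (0.91), Bet1, 4930473A02Rik and Fyn (0.90 each). These values are over 12 sums of batch-centred log2(CPM + 1), from 9930 tested genes with a mean of at least 10 CPM, of which the 99th percentile was 0.78. The sums share libraries and the 4 groups, so r reflects group differences too and carries no p. They include the vehicle sums on which Prkaa1 was chosen, so r follows that contrast in part, also for the other members. No other member came close. Prkab1 was at 0.38, Prkag2 at 0.04, Prkaa2 at -0.10, Stk11 at -0.32, Prkag1 at -0.34 and Prkab2 at -0.70.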

How the data were processed

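RNA of 127 single cells (1 deposited sample each) was measured with SMARTer cDNA and Nextera XT libraries, per the labels. The deposited table holds raw read counts per Ensembl gene, made by the authors without normalization. The submitters' processing notes name FastQC, Trimmomatic 0.36, STAR 2.5, HTSeq 0.9.1, GRCm38 and mm10. How these were set, and which annotation and strand option were used, is not given in the sources used here. Of 53465 identifiers, 53274 matched a symbol in GENCODE M21 tables. No 2 cells had identical counts (highest r 0.855). Groups came from sample titles and batches from the descriptions. Batch pairs the sums by label. Deviations from group means correlated at 0.129 to 0.193 for batch 1, at 0.0969 to 0.144 for batch 2 and at 0.200 to 0.299 for batch 3. Between batches the values ran from -0.779 to 0.196. Subtracting the mean of 3 sums pushes sums of the same group towards negative values, so these correlations do not show whether batch pairs the sums.

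Counts were summed per group and batch. Genes passing filterByExpr with a count in at least 20% of 104 neurons (15091) were fitted in edgeR 4.0.16 (R 4.3.3) with TMM, group and batch, and tested by the robust quasi-likelihood test, two-sided, with Benjamini-Hochberg adjustment over all genes tested and a threshold of 0.05. The common biological coefficient of variation was 0.928 with 6 residual degrees of freedom. The fit was also run on simulated counts that had a smaller spread between sums than these data and no difference between batches. That run therefore does not show how the fit performs at the spread found here. SE was derived from the log2FC and its F statistic. CPM is relative to all counts of a sum, and ratios with 1 sum a group use log2(CPM + 1). Poisson and binomial intervals are at 95%. Alternatives were RLE size factors, DESeq2 1.42.0, limma-voom 3.58.1, no low-count filter, no batch block, each batch left out, neurons rich in other cells' markers left out, thinned cells, equal weight of cells and other pseudocounts.

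Besides the 7 members, from each list the highest and lowest log2FC for repeat length under each treatment among tested genes with a mean of at least 10 CPM, and any that passed, are named, with the 5 genes most like Prkaa1. One gene that this rule names is not reported here. The members and lists were chosen with earlier results of these data known. Plots used matplotlib 3.10.9.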

Additional observations from a re-analysis of the deposited data

Results flagged for a closer look

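The 7 members were examined at both ends of the 9 empty vector neurons for a cell that stands apart from the rest. How often chance flags a cell among values as uneven as these was not tested, so the flags are descriptions only. The median of these neurons was 2.33 CPM for Prkab2 and 16.9 CPM for Stk11. Prkab2 had its highest cell (cell 6) at 296 CPM, where the next had 134 CPM, a gap of 0.547 of the whole range. Stk11 had its highest cell (cell 3) at 99.6 CPM, where the next had 26.7 CPM, a gap of 0.768 of the range. Cell 6 gave 54.4% of the Prkab2 counts and cell 3 gave 46.5% of the Stk11 counts of the empty vector sum, so comparisons of these genes with empty vector neurons rest largely on those cells.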

How the results depend on the processing

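The count of genes that passed was 0 in the 5 contrasts of transgene neurons, and 0 again with RLE size factors, without the 12 or the 3 neurons rich in other cells' markers, with thinned cells and with each batch left out. DESeq2 called 213 genes for repeat length under vehicle, 277 under RGFP109, 110 for RGFP109 in 97Q neurons, 143 in 25Q neurons and 70 for the interaction. Limma-voom called 3, no low-count filter 3 and equal weight of cells 2 for repeat length under RGFP109, and no low-count filter called 1 for RGFP109 in 97Q neurons. Without the batch block 0 genes passed in each contrast, and Prkaa1 stood at 1.46 for repeat length under vehicle and 0.05 under RGFP109. No member that was tested had an adjusted p under 0.0971 in any of these alternatives (Prkab2, RGFP109 in 97Q neurons, DESeq2). Over 12 alternatives, Prkaa1 ranged from 1.23 to 1.58 for repeat length under vehicle and from -0.09 to 0.43 under RGFP109, where 8 of 12 kept its sign. Of the member values given without a test, 2 moved by more than the SD of the 3 differences by batch: Prkab1 for repeat length under vehicle was 2.85 with limma-voom, and Prkab2 was -3.20 without batch 3. Of the 7 members, 5 were past 2-fold between astrocytes and empty vector neurons, 3 with thinned cells and 2 with a pseudocount of 10 CPM. The cause of these moves was not tested.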
